A study of Mus musculus with 96 samples.

Results

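Oligodendrocyte precursor and lineage genes were followed across brain regions, ages and plasma treatments in mice. The 9 genes are Pdgfra, Cspg4, Olig1, Olig2, Sox10, Lhfpl3, C1ql1, Matn4 and Ptprz1. They were chosen by name from the 35486 genes of the count table, and all 9 passed the filter on low counts in every fit. Messenger RNA was sequenced in bulk, as 96 libraries from 38 male mice of the inbred strain C57BL/6J, with no allele named for any group. In a first experiment 29 mice each gave hippocampus, cerebellum and cortex, and in a second experiment 9 mice gave hippocampus only. The study asked how plasma from young animals, injected into older ones, affects these regions. Mice injected daily for 7 days with young plasma were 18 months old (5 mice) or 22 months old (3 mice), and their controls received phosphate-buffered saline (PBS) at 18 months (4 mice) or 22 months (3 mice). Mice of 19 months received 24 daily injections of young plasma (3 mice) or of PBS (4 mice). Naive mice, which had no injection, were 18 months old (3 mice) or 2 months old (4 mice), although the series text gives 3 months for the young animals. The second experiment compared 5 mice given plasma with 4 given PBS for 7 days, all 18 months old. How many donors the plasma came from is not stated in the sources used here.

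Oligodendrocyte precursors are dividing glial cells that persist in the adult brain and give rise to the myelinating oligodendrocytes. They are recognised by the growth factor receptor PDGFRA and the proteoglycan NG2 (encoded by Cspg4), and lose both as they differentiate. The transcription factors Olig1, Olig2 and Sox10 are instead kept through the whole lineage, from precursor to myelinating cell. In bulk tissue, fewer cells of a type and less RNA per cell cannot be told apart, so each value below is a level of RNA in a piece of tissue.

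Library totals ran from 851288 to 23768385 counts with a median of 8889509, and 7 libraries held fewer than 2500000. The regional labels were checked against the Purkinje cell gene Pcp2, which was 6.26 ± 0.06 higher on the log2 scale in cerebellum than in cortex (fitted difference ± SE), and against the hippocampal gene Fibcd1, which was 3.96 ± 0.16 higher in hippocampus than in cortex. Of neuronal marker lists, 10 of 10 cerebellar markers were higher and 10 of 10 cortical markers lower in cerebellum than in cortex, and 10 of 10 hippocampal markers were higher in hippocampus than in cortex. A score of each region's own neuronal markers was low in 8 libraries, and some of the fitted differences that rest on them are also given without them. Of 136 pairs of libraries from the same group, none agreed within sampling noise (lowest chi-square per degree of freedom 1.403). Levels are given in CPM, the gene's share of all counts of its library scaled to 1000000, and because PCR reads without molecular identifiers are not independent molecules, counting intervals are not given. Each library is from 1 mouse, so the p-values within a region measure the spread between mice. Comparisons between regions fit the libraries of the same mouse as separate samples, and the mouse entered as a block only in an alternative.

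The 9 genes did not share 1 regional pattern. Pdgfra, Cspg4, C1ql1 and Matn4 were highest in hippocampus, intermediate in cortex and lowest in cerebellum. Olig1, Olig2 and Sox10 were lower in cerebellum than in cortex and did not pass the test between hippocampus and cortex. Lhfpl3 and Ptprz1 had the opposite direction in cerebellum, where both were higher than in hippocampus and in cortex. Regions were compared in all 87 libraries of the first experiment with edgeR's quasi-likelihood test at a Benjamini-Hochberg adjusted p of 0.05 over all 19490 genes tested. Between hippocampus and cerebellum 9 of 9 genes passed, 7 higher and 2 lower, against 84.1% of all genes tested (40.9% higher and 43.2% lower). Between hippocampus and cortex 5 of 9 passed, all higher, against 60.3% of all genes (29.9% higher and 30.3% lower). Between cerebellum and cortex 9 of 9 passed, 2 higher and 7 lower, against 83.3% of all genes (43% higher and 40.3% lower). With backgrounds this high the number of calls is not a result about these genes, and the directions and sizes are what follow. The median log2 difference of the 9 genes was 0.75 for hippocampus minus cerebellum, against -0.02 over all genes. It was 0.33 for hippocampus minus cortex, against 0.00 over all genes, and -0.74 for cerebellum minus cortex, against 0.02 over all genes.

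The sequence just before the annotated start is shown for Pdgfra and Cspg4, which were lower in cerebellum, and for Lhfpl3 and Ptprz1, which were higher there. The sequences are from RefSeq on build GRCm38.p6, written 5′ to 3′ on the gene's strand, which is the plus strand for all 4. They cover chr5:75152001-75152250 for Pdgfra, chr9:56864854-56865032 for Cspg4 (179 bases, ending where the annotated gene begins), chr5:22745804-22746053 for Lhfpl3 and chr6:22875252-22875501 for Ptprz1. Capitals mark matches on either strand to the E-boxes CAGCTG and CAGATG, the kind of site that basic helix-loop-helix factors such as OLIG2 bind, or to the SOX-type words ACAAAG and ACAATG.
Pdgfra: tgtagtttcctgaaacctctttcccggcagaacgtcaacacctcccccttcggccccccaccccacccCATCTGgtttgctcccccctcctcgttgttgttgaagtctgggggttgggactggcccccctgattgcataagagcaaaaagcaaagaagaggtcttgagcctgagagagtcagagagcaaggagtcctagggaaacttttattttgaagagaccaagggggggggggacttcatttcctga
Cspg4: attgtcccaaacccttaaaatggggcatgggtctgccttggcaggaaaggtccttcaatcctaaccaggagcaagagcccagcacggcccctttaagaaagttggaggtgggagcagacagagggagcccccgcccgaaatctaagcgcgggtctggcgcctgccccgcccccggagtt
Lhfpl3: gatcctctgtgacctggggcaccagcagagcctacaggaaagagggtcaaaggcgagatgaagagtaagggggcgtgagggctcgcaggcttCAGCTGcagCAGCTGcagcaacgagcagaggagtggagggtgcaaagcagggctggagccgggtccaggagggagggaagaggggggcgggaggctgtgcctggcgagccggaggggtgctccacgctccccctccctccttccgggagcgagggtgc
Ptprz1: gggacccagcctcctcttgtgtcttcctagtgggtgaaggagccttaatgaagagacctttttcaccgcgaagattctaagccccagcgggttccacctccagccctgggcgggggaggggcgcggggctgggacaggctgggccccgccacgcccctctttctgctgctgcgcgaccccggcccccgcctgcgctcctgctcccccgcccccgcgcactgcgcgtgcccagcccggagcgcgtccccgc
The Pdgfra window held 1 match, to CAGATG on the other strand at position -182 from the RefSeq start, and the Lhfpl3 window held 2 matches to CAGCTG. The Cspg4 and Ptprz1 windows held none of the 4 words. Among all 32851 windows of 250 bases, 13.0% held CAGCTG, 14.4% CAGATG, 16.5% ACAAAG and 10.7% ACAATG, so each match is a common word and is given as a description only. The G and C share was 54.4% for Pdgfra, 60.4% for Cspg4, 67.2% for Lhfpl3 and 71.6% for Ptprz1, against a median of 52.4% over all windows. Of the 9 genes, 6 have a window in the table used, and no window of Olig1, Sox10 or C1ql1 was used here.

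Pdgfra (chr5:75152292-75198215, plus strand; GENCODE coordinates on GRCm38 are given here and below) encodes the receptor through which PDGF-A keeps precursors dividing. Its level over the 29 libraries of each region had a lowest, median and highest value of 26.0, 35.4 and 52.7 CPM in hippocampus. The same 3 values were 7.66, 14.1 and 21.5 CPM in cerebellum, and 18.0, 26.3 and 41.9 CPM in cortex. The hippocampal and cerebellar ranges did not overlap, and each of the 29 mice had more Pdgfra in its hippocampus than in its cerebellum. How many of all genes had ranges apart between regions was not counted, here or for the genes below. The test between hippocampus and cerebellum was passed by 84.1% of all genes, so ranges that stay apart are given as a description. Pdgfra averaged 37.0 ± 6.51 CPM in hippocampus, 14.5 ± 3.52 CPM in cerebellum and 27.0 ± 5.21 CPM in cortex (SD, n = 29 each). It was 2.72-fold higher in hippocampus than in cerebellum (log2 1.44 ± 0.07 SE, adjusted p = 8.68e-31) and 1.35-fold higher in hippocampus than in cortex (log2 0.43 ± 0.06, adjusted p = 2.42e-08, higher in 25 of 29 mice). In cerebellum it was at 0.494 of the cortical level (log2 -1.02 ± 0.07, adjusted p = 6.31e-22).

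Cspg4 (chr9:56865033-56899870, plus strand) encodes NG2, a surface proteoglycan of precursors that pericytes also carry. The lowest, median and highest values were 16.9, 21.5 and 29.4 CPM in hippocampus, 4.56, 9.17 and 12.8 CPM in cerebellum, and 9.52, 16.4 and 23.3 CPM in cortex. As with Pdgfra, the ranges of hippocampus and cerebellum stayed apart, while that of cortex overlapped both. Cspg4 was 2.47-fold higher in hippocampus than in cerebellum (log2 1.31 ± 0.06), and no mouse had more of it in cerebellum than in cortex (log2 -0.97 ± 0.06, adjusted p = 4.05e-23). Between hippocampus and cortex it was 1.27-fold higher (log2 0.34 ± 0.06, adjusted p = 5.1e-07), in 24 of 29 mice.

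**Figure D1:**
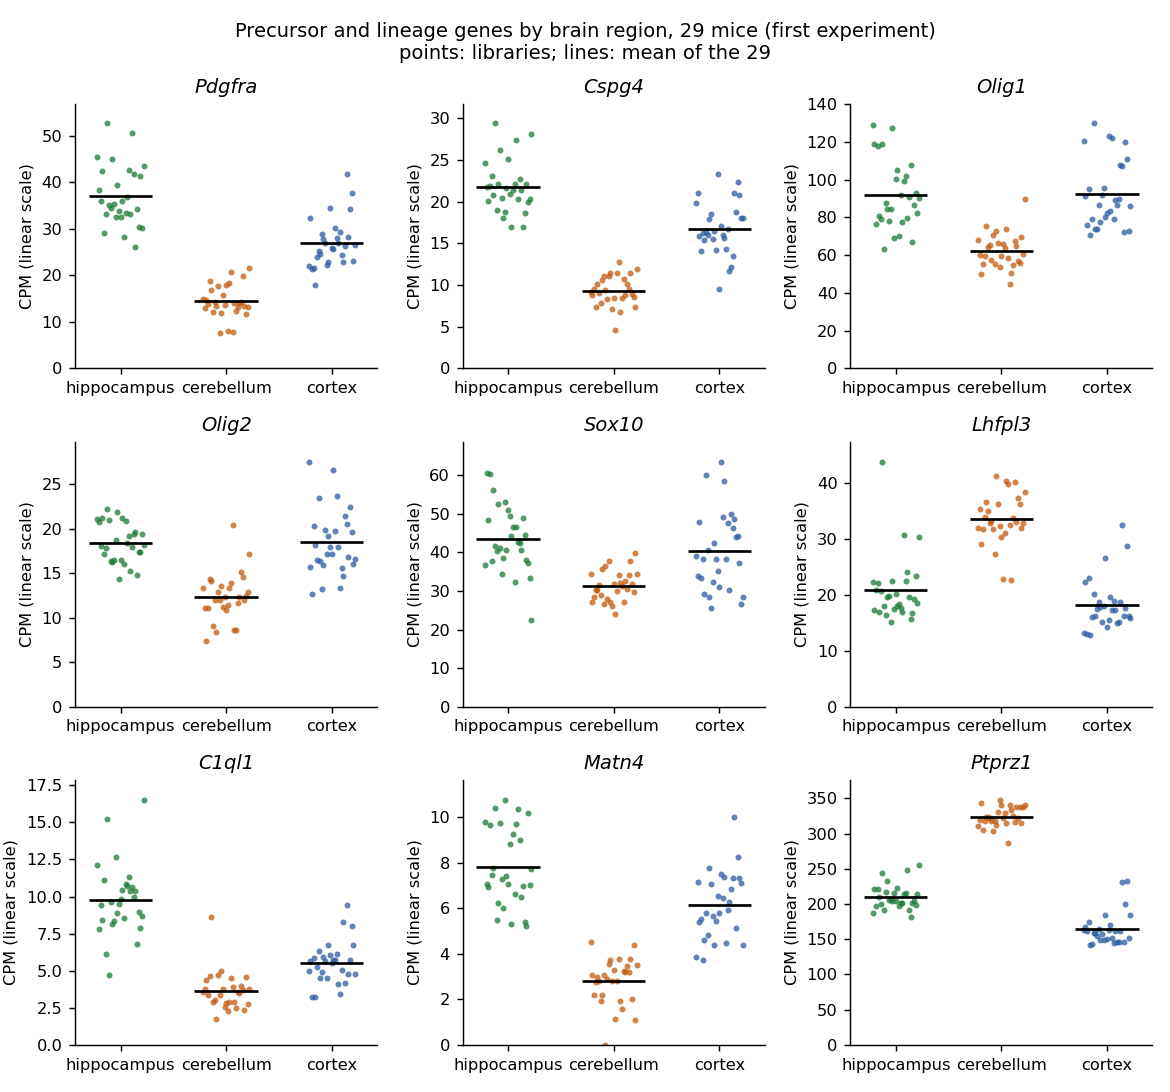
Level of each of the 9 genes in CPM on a linear axis, with 1 point per library and a line at the mean of the 29 libraries, for hippocampus, cerebellum and cortex of the first experiment. Pdgfra spans 26.0 to 52.7 CPM in hippocampus and 7.66 to 21.5 CPM in cerebellum, while Ptprz1 spans 182 to 255 CPM in hippocampus and 286 to 348 CPM in cerebellum.

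Olig1 (chr16:91269772-91271933, plus strand), Olig2 (chr16:91225457-91228677, plus strand) and Sox10 (chr15:79154908-79165240, minus strand) are the transcription factors of the lineage. Olig2 specifies precursors, its neighbour Olig1 acts in differentiation and myelin repair, and Sox10 switches on myelin genes. Olig1 averaged 91.6 ± 18.1 CPM in hippocampus, 62.4 ± 9.19 CPM in cerebellum and 92.2 ± 17.8 CPM in cortex (SD, n = 29 each). Olig2 averaged 18.4 ± 2.21 CPM in hippocampus, 12.3 ± 2.69 CPM in cerebellum and 18.5 ± 3.72 CPM in cortex. Sox10 had lowest, median and highest values of 22.6, 42.5 and 60.5 CPM in hippocampus, 23.9, 31.2 and 39.9 CPM in cerebellum, and 25.7, 38.3 and 63.6 CPM in cortex. The ranges of all 3 genes overlapped between every pair of regions. Against cortex, cerebellum was lower by log2 -0.74 ± 0.07 for Olig1, -0.77 ± 0.06 for Olig2 and -0.52 ± 0.07 for Sox10. Hippocampus was above cerebellum by log2 0.71 ± 0.07, 0.75 ± 0.06 and 0.64 ± 0.07 for the same 3 genes. The difference of hippocampus minus cortex was -0.02 for Olig1 (95% interval -0.16 to 0.11, adjusted p = 0.784) and -0.02 for Olig2 (-0.14 to 0.10, adjusted p = 0.813). For Sox10 it was 0.12 (-0.01 to 0.25, adjusted p = 0.10). Each of the 3 genes was higher in hippocampus than in cortex in 14 of 29 mice. At this precision hippocampus and cortex were not ordered for the lineage factors, and differences inside these intervals remain possible.

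The ratio of a surface marker to a lineage factor in the same library does not depend on how libraries are scaled. The counts of Pdgfra divided by those of Olig2 had a median of 2.00 in hippocampus, 1.2 in cerebellum and 1.51 in cortex (29 libraries each). The ratio of Pdgfra to Sox10 had medians of 0.801 in hippocampus, 0.461 in cerebellum and 0.642 in cortex, and that of Cspg4 to Sox10 had medians of 0.49, 0.288 and 0.422 in the same order. The ratio of Olig1 to Olig2 had medians of 4.96 in hippocampus, 5.32 in cerebellum and 5.02 in cortex. These ratios are given as descriptions, since they are read from genes already compared one by one.

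C1ql1, Matn4, Lhfpl3 and Ptprz1 are genes enriched in precursors among brain cells. C1ql1 (chr11:102939264-102946688, minus strand) encodes a secreted protein of the C1q family that at certain synapses binds the receptor BAI3. Its lowest, median and highest values were 4.74, 9.64 and 16.5 CPM in hippocampus, 1.74, 3.57 and 8.62 CPM in cerebellum, and 3.22, 5.63 and 9.40 CPM in cortex. It was 2.93-fold higher in hippocampus than in cerebellum (log2 1.55 ± 0.10) and 1.75-fold higher in hippocampus than in cortex (log2 0.80 ± 0.09, adjusted p = 1.05e-11), in 28 of 29 mice in both cases. Matn4 (chr2:164389393-164405160, minus strand) encodes matrilin-4, a protein of the extracellular matrix. It had 5.21, 7.41 and 10.8 CPM as lowest, median and highest values in hippocampus, 0, 2.98 and 4.51 CPM in cerebellum, and 3.71, 5.91 and 10.0 CPM in cortex. The hippocampal and cerebellar values did not overlap. Matn4 was 2.90-fold higher in hippocampus than in cerebellum (log2 1.54 ± 0.10), in 29 of 29 mice, and 1.26-fold higher in hippocampus than in cortex (log2 0.33 ± 0.09, adjusted p = 0.000733). By median CPM it was the lowest of the 9 genes in hippocampus and cerebellum, whereas C1ql1 was the lowest in cortex. The only library without a Matn4 count was a cerebellum of the 24-day PBS group, which held 851288 counts, the fewest of any library.

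Lhfpl3 (chr5:22746059-23275597, plus strand) encodes a membrane protein of the LHFPL tetraspan family. Its lowest, median and highest values were 15.1, 19.6 and 43.8 CPM in hippocampus, 22.7, 33.0 and 41.2 CPM in cerebellum, and 12.8, 17.2 and 32.4 CPM in cortex. Cerebellum was above cortex in 29 of 29 mice (log2 0.71 ± 0.08, 1.64-fold, adjusted p = 4.02e-13), and hippocampus was below cerebellum in 28 of 29 (log2 -0.56 ± 0.08). Between hippocampus and cortex its difference of 0.15 did not pass the edgeR test (95% interval -0.01 to 0.31, adjusted p = 0.095), whereas limma-voom called it at 0.17 (adjusted p = 0.027). Ptprz1 (chr6:22875502-23052916, plus strand) encodes a receptor tyrosine phosphatase that precursors and astrocytes both carry. It had 182, 206 and 255 CPM as lowest, median and highest values in hippocampus, 286, 322 and 348 CPM in cerebellum, and 142, 159 and 233 CPM in cortex. The cerebellar range lay above both others without overlap. Ptprz1 was 1.76-fold higher in cerebellum than in cortex (log2 0.81 ± 0.03, adjusted p = 4.77e-36), and hippocampus was at 0.718 of the cerebellar level (log2 -0.48 ± 0.03). Hippocampus was 1.26-fold above cortex (log2 0.33 ± 0.03, adjusted p = 5.17e-15).

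**Figure D2:**
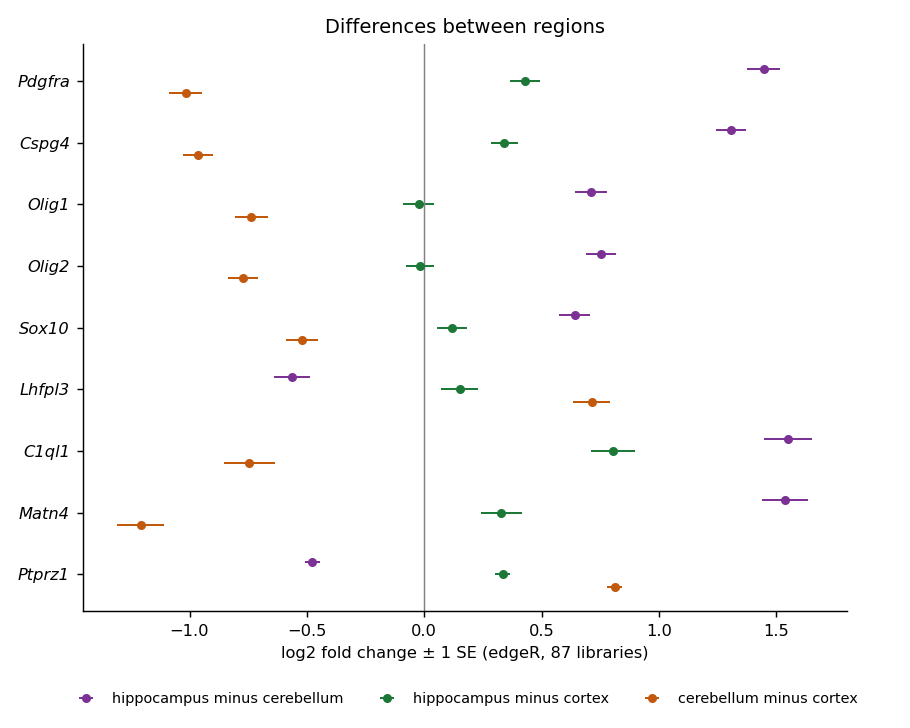
Fitted log2 fold change ± 1 SE of each gene for hippocampus minus cerebellum, hippocampus minus cortex and cerebellum minus cortex, over 87 libraries. Pdgfra, Cspg4, C1ql1 and Matn4 lie between 1.31 and 1.55 for hippocampus minus cerebellum, whereas Lhfpl3 (-0.56) and Ptprz1 (-0.48) lie below 0.

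Divided by exon length, so that genes can be set against each other, the order of the genes was led by Olig1 in each region. Its level per kilobase of exon was 42.5 CPM in hippocampus, 28.9 CPM in cerebellum and 43.0 CPM in cortex. Ptprz1 followed with 14.7 CPM per kilobase in hippocampus and 22.7 in cerebellum, and Sox10 had 14.5 in hippocampus, 10.3 in cerebellum and 13.4 in cortex. Matn4, Cspg4 and Pdgfra were the lowest, at 1.51, 1.82 and 3.68 CPM per kilobase in hippocampus. The spread between mice of 1 group was smallest for Ptprz1, with a median coefficient of variation of 7.69% in hippocampus, 3.39% in cerebellum and 7.72% in cortex. It was largest for Matn4 in cerebellum (34.9%), the gene and region with the fewest counts.

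The regional directions were also read group by group from mean CPM, which is scaled by library totals alone. Pdgfra and Cspg4 were higher in hippocampus than in cerebellum in 8 of 8 groups. The exceptions to the fitted directions were C1ql1, which had more in cerebellum than in cortex in the 24-day plasma group, Sox10, which had slightly less in hippocampus than in cerebellum in the naive mice of 2 months, and Lhfpl3 and Matn4, each lower in hippocampus than in cortex in the PBS group of 22 months. The 3 lineage factors, not called between hippocampus and cortex, were each higher in hippocampus in 4 of 8 groups. Scaling by library totals alone moved the median of all genes by 0.17 for cerebellum minus cortex and by -0.15 for hippocampus minus cerebellum, relative to the scaling used elsewhere, and the members called and their directions did not change. Leaving out the 8 libraries of low neuronal score gave log2 1.34 for Pdgfra and -0.69 for Lhfpl3 in hippocampus minus cerebellum, with the same 9, 5 and 9 calls in the 3 comparisons.

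Other genes of the lineage were read from lists. Counts of calls here and in the next 2 paragraphs are descriptions. The test was passed by 84.1% of all genes for hippocampus minus cerebellum, 60.3% for hippocampus minus cortex and 83.3% for cerebellum minus cortex. Of 18 other precursor markers, 15 were higher and 2 lower in hippocampus than in cerebellum (median log2 0.95), 9 were higher and 6 lower in hippocampus than in cortex (median 0.07), and 3 were higher and 14 lower in cerebellum than in cortex (median -0.72). The receptor gene Megf11 went with Lhfpl3 and Ptprz1 in direction, at 224 ± 16.2 CPM in cerebellum and 29.9 ± 4.40 CPM in cortex (SD, n = 29 each; log2 2.75 ± 0.05), whereas the glutamate receptor subunit gene Gria3 was lower in cerebellum (log2 -1.40 ± 0.03). Of 12 tested genes of committed precursors and newly formed oligodendrocytes, 8 were higher and 3 lower in hippocampus than in cerebellum, and 7 were higher and 0 lower in hippocampus than in cortex. Among 15 further transcription factors of the lineage, 11 were higher and 3 lower in cerebellum than in cortex, led by the chromatin remodeller Chd7 (log2 4.26 ± 0.05), which cerebellar granule neurons also express. The 16 genes of mature oligodendrocytes and myelin did not follow one direction, with 6 higher and 4 lower in cerebellum than in cortex (median 0.08) and 6 higher and 5 lower in hippocampus than in cerebellum (median 0.05).

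Partners and family relatives of the members, and proliferation genes, were read in the same way, beside 83.3% of all genes called between cerebellum and cortex. Of 6 genes of the PDGF system, 2 were higher and 4 lower in cerebellum than in cortex, among them the ligand genes Pdgfb (log2 -2.22 ± 0.07) and Pdgfd (log2 1.94 ± 0.08). Of 9 partners of Ptprz1, 2 were higher and 6 lower in cerebellum than in cortex, and the matrix genes Ncan (log2 -3.69 ± 0.05) and Tnr (log2 -1.12 ± 0.03) ran opposite to Ptprz1 itself. In the family of C1ql1 and its receptor, 3 of 7 were higher and 2 lower in cerebellum than in cortex, and the synaptic organiser Cbln1 was higher by log2 7.00. Of the 4 tested Lhfpl family genes 2 were higher and 1 lower in cerebellum than in cortex, and the 1 tested matrilin, Matn2, was lower (log2 -1.87). Of 8 tested proliferation genes, 4 were higher and 2 lower in hippocampus than in cerebellum. The 2 lower ones, Mcm5 (log2 -1.40 ± 0.08) and Mcm2 (log2 -1.14 ± 0.07), had the smallest adjusted p of the list. The summed level of the 10 listed proliferation genes had a median of 52.0 CPM in hippocampus and 65.0 CPM in cerebellum.

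Several members are also expressed by other cells, so markers of those cells were read in the same libraries. Of 10 fibroblast markers, 8 were higher and 1 lower in cerebellum than in cortex, the reverse of Pdgfra. Their summed level ran from 41.0 to 279.7 CPM in hippocampus, 111 to 235 CPM in cerebellum and 53.4 to 125 CPM in cortex. The medians of this sum were 119, 161 and 78.5 CPM in the same order, so that hippocampus lay above cortex, the same direction as Pdgfra. Of 10 pericyte and smooth muscle markers, 1 was higher and 5 lower in cerebellum than in cortex, with sums of 126 to 283 CPM in hippocampus, 146 to 228 CPM in cerebellum and 139 to 207 CPM in cortex. Of 10 astrocyte markers, 6 were higher and 3 lower in cerebellum than in cortex, with sums of 4414 to 5550 CPM in hippocampus, 5016 to 5983 CPM in cerebellum and 3903 to 4779 CPM in cortex, the same regional order as Ptprz1. No marker of these 3 lists had a median count of 0, and their part in the regional differences was not tested. All 8 microglial markers were lower in cerebellum than in cortex, 6 of 8 endothelial markers were lower, and 8 of 8 choroid plexus markers were higher.

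None of the 9 genes passed the test between naive mice of 18 months and naive mice of 2 months in any region. The calls were 0 of 9 in cerebellum, where edgeR called 2.39% of all genes, 0 of 9 in cortex (0.112% of all genes) and 0 of 9 in hippocampus (0.0719% of all genes). At an unadjusted p under 0.05 the members had 0 values in cerebellum (15% of all genes), 0 in cortex (6.18%) and 1 in hippocampus (6.39%). DESeq2 and limma-voom also called 0. Pdgfra had 14.9, 13.1 and 14.8 CPM in cerebellum at 18 months and 13.4, 11.7, 13.2 and 21.5 CPM at 2 months. In cortex it had 22.0, 32.3 and 21.3 CPM at 18 months and 34.2, 37.7, 23.2 and 26.4 CPM at 2 months. Hippocampal Pdgfra was 45.4, 38.3 and 36.1 CPM at 18 months and 30.5, 41.3, 30.1 and 43.5 CPM at 2 months. The ages overlapped in all 3 regions, and the log2 differences were -0.10 ± 0.22 in cerebellum, -0.22 ± 0.18 in cortex and 0.11 ± 0.17 in hippocampus. Cspg4 was still closer between ages, at 9.19 ± 0.372 and 9.19 ± 1.90 CPM in cerebellum, 18.9 ± 2.69 and 19.8 ± 2.14 CPM in cortex, and 22.2 ± 2.29 and 22.6 ± 3.76 CPM in hippocampus, for 18 months (n = 3) and 2 months (n = 4).

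The lowest unadjusted p with age was that of Sox10 in hippocampus. It had 36.8, 60.5 and 48.5 CPM at 18 months and 38.0, 37.2, 33.4 and 22.6 CPM at 2 months. The 2 highest libraries were both from 18 months, but the third lay inside the younger range. The younger library at 22.6 CPM held only 1816018 counts and was of low neuronal score. The log2 difference was 0.49 ± 0.18 (unadjusted p = 0.010, adjusted p = 0.585), and it ran from 0.32 to 0.63 when single libraries were left out. In cerebellum the Sox10 difference was -0.20 ± 0.12, and the difference between those regions in the age change was 0.69 ± 0.27 (adjusted p = 0.477). None of the 9 genes passed the edgeR test of the age change between cerebellum and cortex (0.041% of all genes called), hippocampus and cortex (0% of all genes) or hippocampus and cerebellum (0.0513% of all genes), and Sox10 in the last of them was the 1 value with an unadjusted p under 0.05, which 8.65% of all genes had there.

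The other members gave wide intervals rather than evidence of equal levels. Olig2 in cerebellum had 13.4, 11.1 and 7.38 CPM at 18 months and 12.0, 12.4, 12.9 and 17.1 CPM at 2 months (log2 -0.36 ± 0.19, adjusted p = 0.384). Ptprz1 in cortex had 164, 167 and 161 CPM at 18 months and 200.2, 233, 152 and 185 CPM at 2 months (log2 -0.24 ± 0.12, adjusted p = 0.807). In both cases the highest library was a young one and the ranges overlapped. The cortical library at 233 CPM was of low neuronal score. The 95% intervals of the 9 genes reached at most from -0.75 to 0.85 in cerebellum, from -0.97 to 0.64 in cortex and from -0.68 to 0.86 in hippocampus. Below 0 lay 7 of 9 values in cerebellum (median -0.10), 8 of 9 in cortex (median -0.18) and 5 of 9 in hippocampus (median -0.02), against medians of all genes of 0.01, 0.01 and -0.01. In data simulated from these libraries with known changes of 1 log2 unit, the same test recovered 77% of changed genes in cerebellum, 65.7% in cortex and 74.7% in hippocampus. The changed genes were drawn at random from all genes of the fit, and the others were given no difference between groups. These shares therefore do not say how often a change in 1 of the 9 genes, at its own counts, would be called.

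**Figure D3:**
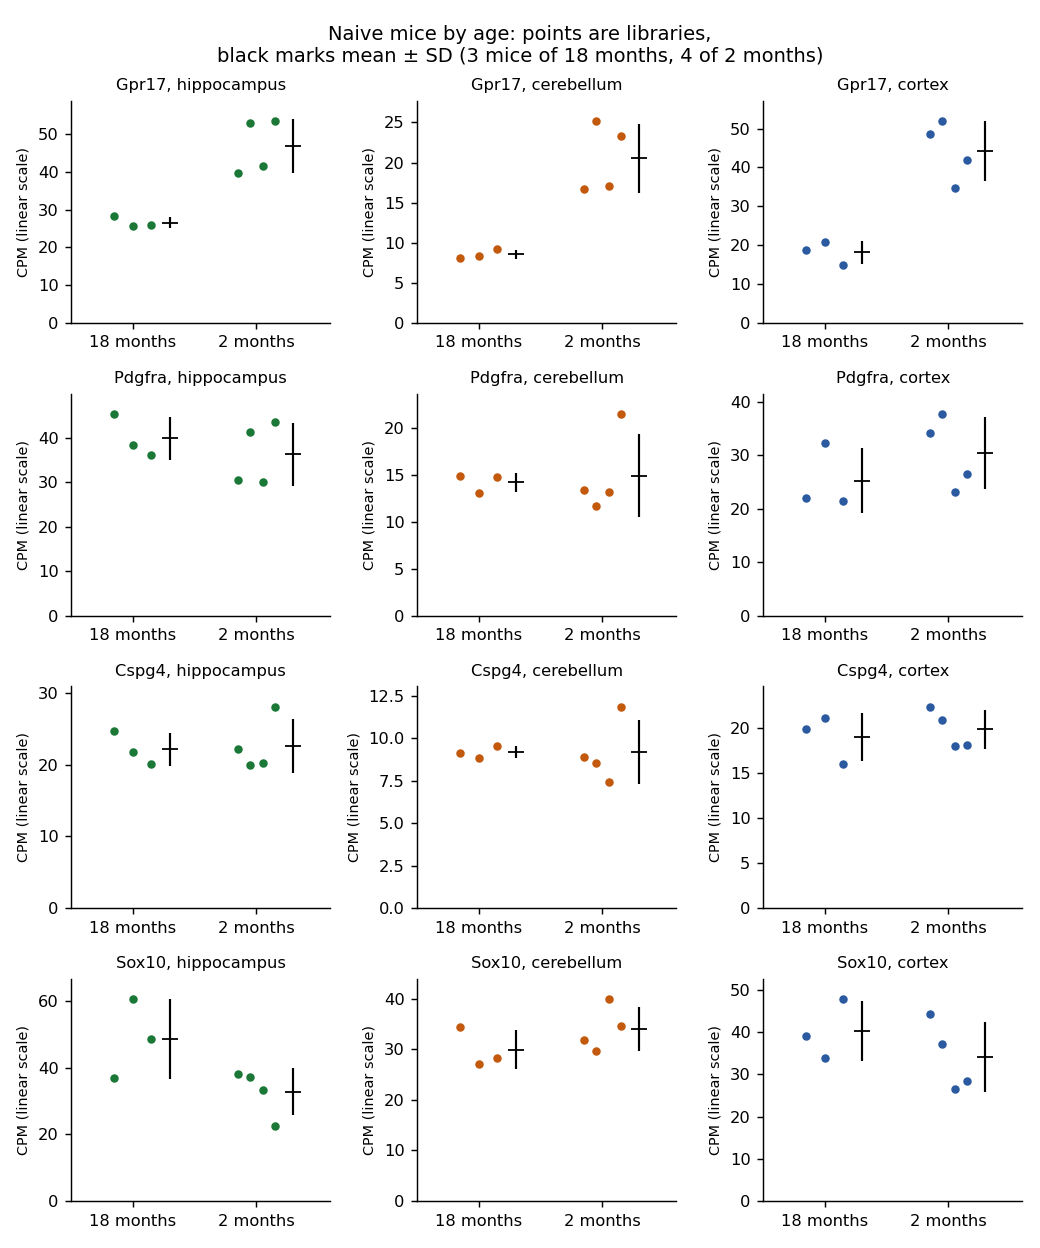
Levels in CPM (linear axes) of selected genes in naive mice, with 1 point per library and black marks for mean ± SD, 18 months (3 mice) left of 2 months (4 mice), by region. Hippocampal Sox10 reaches 60.5 CPM at 18 months with overlap between ages, while Gpr17 does not overlap between ages in any region. The share of all genes without such overlap was not counted.

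Gpr17, which encodes a G protein-coupled receptor of committed precursors on their way to oligodendrocytes, is not one of the 9 genes and was read beside them because it marks the next stage. It was the only gene called with age, in each region, from the list of committed precursors and newly formed oligodendrocytes. That list was chosen with earlier results of these data known. In cerebellum Gpr17 had 8.08, 8.36 and 9.17 CPM at 18 months and 16.7, 25.2, 17.0 and 23.3 CPM at 2 months. In cortex the values were 18.7, 20.8 and 14.9 CPM at 18 months and 48.6, 51.9, 34.6 and 41.8 CPM at 2 months, and in hippocampus 28.2, 25.6 and 25.9 CPM at 18 months and 39.6, 52.8, 41.6 and 53.4 CPM at 2 months. Every library of 18 months was below every library of 2 months in each region. The share of all genes without overlap between these ages was not counted. Gpr17 was lower at 18 months by log2 -1.30 ± 0.21 in cerebellum (adjusted p = 0.00023), -1.27 ± 0.21 in cortex (adjusted p = 0.0049) and -0.85 ± 0.12 in hippocampus (adjusted p = 0.0020). The cerebellar call held under all 14 alternatives tried. The cortical call was lost without the 18-month replicate 6 (log2 -1.45, adjusted p = 0.0627) or replicate 9 (log2 -1.16, adjusted p = 0.106), and the hippocampal call was lost when the compared groups were fitted alone (log2 -0.85, adjusted p = 0.315). The 95% intervals of all 9 members lay above the Gpr17 estimate in each region. That estimate has an error of its own, which the comparison leaves out, and the difference between Gpr17 and the members was not tested. The age change of Gpr17 itself did not pass the test between regions (log2 difference -0.02 ± 0.28 for cerebellum minus cortex, 0.43 ± 0.26 for hippocampus minus cortex and 0.46 ± 0.28 for hippocampus minus cerebellum).

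**Figure D4:**
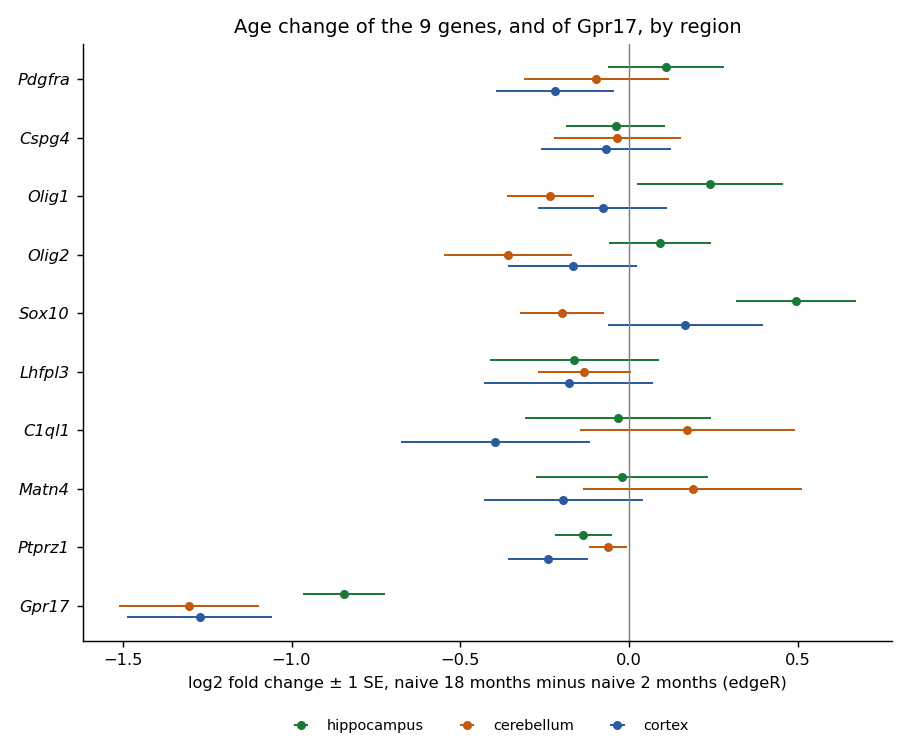
Fitted log2 fold change ± 1 SE, naive 18 months minus naive 2 months, of the 9 genes and of Gpr17 in hippocampus, cerebellum and cortex. Gpr17 lies at -0.85, -1.30 and -1.27 in these regions, and the 9 genes lie between -0.40 and 0.49.

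Of the other genes of that stage, Enpp6, an enzyme of newly forming oligodendrocytes, had log2 differences of -0.28 ± 0.15 in cerebellum, -0.87 ± 0.38 in cortex and 0.04 ± 0.39 in hippocampus, none past the threshold. Bmp4, a secreted factor of committed precursors, had -0.16, -0.55 and -0.55 and was not called either. Among the other lists, 1 of 18 further precursor markers was called, Tmem100 in cerebellum (log2 0.58 ± 0.15, adjusted p = 0.031), a call lost in 9 of 14 alternatives. Among partners of Ptprz1, Tnc (tenascin-C) was lower at 18 months in cerebellum (log2 -1.32 ± 0.25, adjusted p = 0.0014) and Ncan (neurocan) was lower in cortex (log2 -0.39 ± 0.07, adjusted p = 0.019), the cortical call being lost in 8 of 16 alternatives with adjusted p up to 0.305. No gene of the lists of lineage transcription factors, PDGF ligands and receptors, C1ql1 family, Lhfpl family, matrilins or proliferation was called in any of the 3 regions.

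Myelin genes and other cells were read in the same naive mice. In cerebellum 1 of 16 myelin genes was higher and 6 were lower at 18 months (median log2 -0.23), with Cldn11 (claudin-11) at -0.56 ± 0.10 and Ugt8a, which makes galactocerebroside, at -0.66 ± 0.13. In hippocampus none of the 16 was called, although all 16 lay above 0 (median 0.43), with a summed level of 6845 to 9678 CPM at 18 months and 3902 to 7070 CPM at 2 months. The cerebellum held more microglial RNA at 18 months, 6 of 8 markers being higher with sums of 240.4 to 267 CPM at 18 months and 148 to 164 CPM at 2 months. Choroid plexus markers summed to 1757 to 2355 CPM at 18 months and 159 to 1900 CPM at 2 months in cerebellum, with 0 of 8 called and 8 of 8 above 0. Of the astrocyte markers 1 of 10 was higher and 1 lower in cerebellum, of fibroblast markers 1 of 10 was lower, and of pericyte markers 0 of 10 were called. No marker of these lists had a median count of 0, and their part in the values of the 9 genes was not tested.

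At the later ages, PBS mice of 22 months were compared with PBS mice of 18 months, and again 0 of 9 genes passed in each region. edgeR called 0.157% of all genes in cerebellum, 0.00533% in cortex and 0% in hippocampus. DESeq2 and limma-voom called 0 members as well. At an unadjusted p under 0.05 there were 2 values in cerebellum (15.2% of all genes), 0 in cortex (10.9%) and 0 in hippocampus (7.85%). Olig2 in cerebellum had 12.3, 15.1 and 14.6 CPM at 22 months and 20.4, 8.57, 8.63 and 11.6 CPM at 18 months. The highest library was therefore from the younger group, yet the other 3 of that group lay below all of 22 months. That highest library held 1029695 counts, of which 21 were Olig2. The fitted difference was 0.41 ± 0.19 (unadjusted p = 0.0338, adjusted p = 0.278). Olig1 in cerebellum had 67.3, 64.6 and 57.1 CPM at 22 months and 58.3, 44.9, 50.7 and 54.7 CPM at 18 months (log2 0.28 ± 0.13, unadjusted p = 0.0453, adjusted p = 0.316). Pdgfra in cerebellum had 14.2, 14.4 and 19.9 CPM at 22 months and 7.77, 14.1, 12.4 and 13.2 CPM at 18 months, with no overlap between the groups (log2 0.35 ± 0.21, adjusted p = 0.44). It was 1 of 9 members without overlap there, where 15.1% of all genes had none.

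In cortex all 9 values of 22 against 18 months lay above 0, with a median of 0.28. One of the 8 libraries of low neuronal score, PBS replicate 15 of 22 months, had the highest cortical level in these groups of Pdgfra (41.9 CPM), Lhfpl3 (32.4 CPM), C1ql1 (9.40 CPM), Matn4 (10.0 CPM) and Ptprz1 (231 CPM). Without the libraries of low score the differences were 0.04 for Pdgfra, 0.03 for Lhfpl3, 0.02 for Ptprz1 and -0.11 for C1ql1. In hippocampus 6 of 9 values lay below 0 (median -0.21). C1ql1 had 9.95, 10.36 and 6.82 CPM at 22 months and 10.71, 11.29, 10.37 and 10.61 CPM at 18 months. These groups all but touched without overlapping, in a comparison in which 10.4% of all genes did not overlap, and the difference was -0.21 ± 0.26. Gpr17 differed by 0.00 ± 0.24 in cerebellum, 0.19 ± 0.21 in cortex (-0.26 without the libraries of low score) and -0.51 ± 0.12 in hippocampus (adjusted p = 0.481). Among the other lineage lists 1 gene was called, Cnksr3 in cerebellum (log2 -0.42 ± 0.08, adjusted p = 0.029), a call lost in 5 of 15 alternatives with adjusted p up to 0.209. The 16 myelin genes all lay above 0 in hippocampus (median 0.62) with 0 called.

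The injections alone were compared between PBS mice and naive mice, all of 18 months. With 0 of 9 genes called in each region and 0% of all genes called in any region, 1 member value had an unadjusted p under 0.05, against 3.32% of all genes in cerebellum, 3.63% in cortex and 3.54% in hippocampus. That was Cspg4 in cortex, with 14.4, 16.7, 11.7 and 12.2 CPM in PBS mice and 19.8, 21.1 and 15.9 CPM in naive mice. Only the PBS library at 16.7 CPM reached into the naive range, and the log2 difference was -0.49 ± 0.20 (unadjusted p = 0.0227, adjusted p = 1). In cerebellum Cspg4 differed by -0.02 ± 0.19 and in hippocampus by 0.09 ± 0.15. Below 0 lay 8 of 9 values in cerebellum, 8 of 9 in cortex and 3 of 9 in hippocampus, with medians of -0.08, -0.11 and 0.09.

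Young plasma was compared with PBS in 11 ways, over the 3 schedules in 3 regions, the second experiment, and both experiments together at 18 months. None of the 99 member values passed the edgeR test, and edgeR called 0% of all genes in each comparison. DESeq2 and limma-voom called 0 members too, and 5 of the 99 values had an unadjusted p under 0.05. The comparison of both experiments reuses the libraries of the separate ones.

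Pdgfra in hippocampus was the 1 member with an unadjusted p under 0.05 when both experiments at 18 months were fitted together, where 9.56% of all genes had one. In the first experiment it had 35.4, 32.5, 39.5, 33.8 and 32.6 CPM in plasma mice and 36.7, 42.6, 33.2 and 50.6 CPM in PBS mice. In the second it had 26.9, 23.9, 24.7, 20.6 and 38.7 CPM in plasma mice and 31.7, 29.2, 31.5 and 38.9 CPM in PBS mice. In the second experiment 4 of 5 plasma libraries lay below every PBS library, and the fifth lay just under the highest of them. The log2 differences were -0.23 ± 0.15 and -0.24 ± 0.16 in the first and second experiment, and -0.24 ± 0.10 over both (unadjusted p = 0.0224, adjusted p = 0.436). The 2 highest PBS libraries of the first experiment, at 42.6 and 50.6 CPM, were among the 8 of low neuronal score, and without such libraries the difference was 0.00 in the first experiment and -0.16 over both. At 22 months the hippocampal difference was -0.09 ± 0.17, and after 24 days of injections it was -0.27 ± 0.16. In cerebellum Pdgfra differed by 0.07 ± 0.20 at 18 months, 0.17 ± 0.21 at 22 months and 0.27 ± 0.21 after 24 days, none past the threshold.

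**Figure D5:**
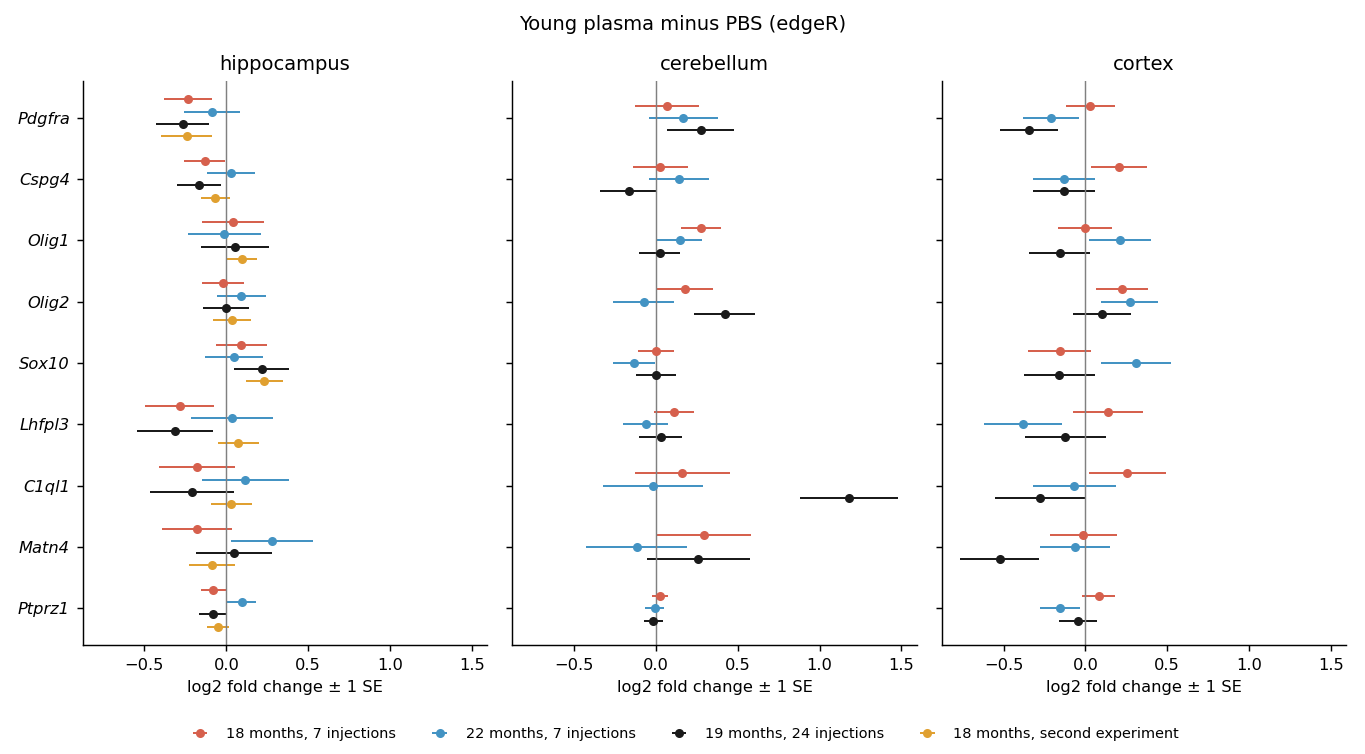
Fitted log2 fold change ± 1 SE, young plasma minus PBS, of each gene in each region for 7 injections at 18 months, 7 injections at 22 months and 24 injections at 19 months, with the second experiment added for hippocampus. Of these values only C1ql1 in cerebellum after 24 injections exceeds 1 (1.18 ± 0.30), and none passed the test.

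C1ql1 in cerebellum gave the largest difference among the 99 values, after 24 days of injections. It had 3.36, 4.67 and 8.62 CPM in plasma mice and 2.87, 3.00, 1.74 and 4.70 CPM in PBS mice. The library at 8.62 CPM was the highest cerebellar value of this gene in the whole study, and the other 2 plasma libraries lay inside the PBS range. The top of that range, at 4.70 CPM, was 4 counts in a library of 851288. The remaining PBS values lay below every plasma value. The log2 difference was 1.18 ± 0.30 (unadjusted p = 0.000423, adjusted p = 0.674), and 0.67 without the highest library. Olig2 in the same comparison had 11.1, 14.4 and 14.2 CPM in plasma mice and 9.09, 12.0, 8.38 and 12.9 CPM in PBS mice (log2 0.42 ± 0.19, unadjusted p = 0.0308, adjusted p = 0.711), and 6.67% of all genes had an unadjusted p under 0.05 there. Olig1 in cerebellum at 18 months had 55.1, 73.0, 66.7, 53.9 and 59.6 CPM in plasma mice and 58.3, 44.9, 50.7 and 54.7 CPM in PBS mice, with overlapping groups (log2 0.28 ± 0.12, unadjusted p = 0.0282, adjusted p = 1, with 4.05% of all genes under an unadjusted 0.05).

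In cortex the lowest unadjusted p of the plasma comparisons were those of Matn4 and Pdgfra after 24 days. Matn4 after 24 days had 5.53, 3.71 and 4.59 CPM in plasma mice and 5.8, 4.80, 7.78 and 7.08 CPM in PBS mice (log2 -0.52 ± 0.24, unadjusted p = 0.0375, adjusted p = 1, with 3.52% of all genes under an unadjusted 0.05). Pdgfra after 24 days had 21.5, 18.0 and 23.9 CPM in plasma mice and 25.1, 24.5, 28.9 and 27.9 CPM in PBS mice (log2 -0.34 ± 0.18), a pair of groups without overlap in a comparison where 6.89% of all genes had none. Sox10 at 22 months had 63.6, 49.2 and 58.5 CPM in plasma mice and 46.3, 48.7 and 43.9 CPM in PBS mice (log2 0.31 ± 0.21), also without overlap, where 10.3% of all genes had none. After 24 days 8 of 9 cortical values lay below 0 (median -0.16), and at 18 months 6 of 9 lay above 0 (median 0.08).

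Over all 20 comparisons within a region, 0 of 180 member values were called by edgeR, 9 had an unadjusted p under 0.05, and the lowest adjusted p was 0.278. The 95% intervals of these values together spanned -1.02 to 1.79, and their width differed between genes. The width was smallest for Ptprz1. Its interval for plasma minus PBS at 18 months was -0.08 to 0.13 in cerebellum. It was -0.13 to 0.29 in cortex and -0.23 to 0.07 in hippocampus. For Matn4 the same intervals were -0.30 to 0.88 in cerebellum, -0.43 to 0.40 in cortex and -0.61 to 0.26 in hippocampus.

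How the 9 genes varied together was read from the deviations of log2 CPM from group means, over 29 libraries in each region, as a description. The points share library, depth and dissection, and no p is given. They include the libraries of low neuronal score, and r was not read without those. Among them was the cortex library with the highest Pdgfra (41.9 CPM) and Lhfpl3 (32.4 CPM) of that region. Across the 36 pairs of genes the median Pearson r was 0.34 in hippocampus, 0.29 in cerebellum and 0.31 in cortex. The neighbours Olig1 and Olig2 moved together in each region, with r of 0.60 in hippocampus, 0.63 in cerebellum and 0.77 in cortex. Pdgfra went with Lhfpl3 in cortex (r = 0.80) and hippocampus (r = 0.66), and with Cspg4 in cerebellum (r = 0.72). Some pairs ran against each other, such as Ptprz1 and Olig2 in cerebellum (r = -0.57) and Sox10 and C1ql1 in hippocampus (r = -0.39). Outside the 9 genes, those most like their mean profile among 10876 candidates were Tril, Gng4, Ly6h, Zcchc12, Cdk18 and Gas2l1, with a mean r over the 3 regions of 0.72, 0.70, 0.69, 0.68, 0.67 and 0.67.

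The kit does not mark strand, so reads of 4 members cannot be told apart from those of genes on the opposite strand where exons overlap. The overlap is 157 bases for Olig1 with Gm15966, 567 bases for Lhfpl3 with A930003O13Rik, 149 bases for Matn4 with Rbpjl, and 456 and 166 bases for Pdgfra with Gm42802 and Gm42803. The median count per library was 53.5 for Gm15966, 42 for A930003O13Rik, 6 for Rbpjl and 0 for both genes opposite Pdgfra, and how the reads in these overlaps were assigned was not tested.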

How the data were processed

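Bulk mRNA was measured in 96 libraries (RNeasy extraction, Smart-Seq2 cDNA, Nextera XT, unstranded, per the labels). The deposited table holds whole-number counts per gene. Trim Galore 0.3.7, STAR 2.5.3a, build GRCm38 and DESeq2 are named in the submitters' processing notes, and the counting tool and annotation are not given in the sources used here. Totals ran from 851288 to 23768385 counts per library, which limits precision most for Matn4 and C1ql1.

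Samples were grouped by region, treatment and age from the labels. The 9 genes and all gene lists were chosen with earlier results of these data known. Counts were analysed with edgeR 4.0.16 in R 4.3.3 (TMM scaling, a filter with a count minimum of 10 and a total of 15, quasi-likelihood test, Benjamini-Hochberg adjustment over all genes of the fit, threshold 0.05). Each region was fitted with all 8 groups, the second experiment was fitted alone, and regions were compared over 87 libraries. The tests were checked on simulated data. Alternatives were DESeq2 1.42.0, limma-voom (limma 3.58.1), other scalings and filters, the compared groups alone, a choroid plexus score as covariate, single libraries left out, libraries left out for low depth or for a neuronal score more than 3 median absolute deviations below the region's median, mice of 1 title number left out, and the mouse as a block. Scaling by library totals alone was added after seeing the data.

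Same-numbered libraries come from the same mouse per the labels. Their deviations from group means had a median correlation of 0.0658 for cerebellum and cortex, 0.0909 for hippocampus and cortex, and 0.0575 for hippocampus and cerebellum (29 mice, 11845 genes).

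Named genes are the 9 members, Gpr17, Bmp4 and Enpp6 for age, at most 2 called genes per other list and comparison by smallest adjusted p, and the 6 genes most like the members among those of at least 5 CPM in each region. Levels per kilobase use the length of the merged exons.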

Additional observations from a re-analysis of the deposited data

Results flagged for a closer look

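In 9 of 126 sets of a gene and a group of 4 or 5 libraries, 1 library stood apart from the rest of its group by Dixon's criterion, which chance alone meets in about 1 of 20 groups. Ptprz1 accounted for 4 of them. It was highest in cortex of plasma replicate 10 at 18 months (184 CPM, next 157 CPM) and in hippocampus of the same mouse (216 CPM, next 207 CPM), highest in cortex of PBS replicate 5 at 18 months (161 CPM, next 147 CPM), and lowest in cerebellum of naive replicate 14 at 2 months (316 CPM, next 338 CPM).

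Lhfpl3 stood apart in hippocampus of the 24-day PBS replicate 24 (43.8 CPM, next 19.6 CPM) and in cortex of naive replicate 14 at 2 months (28.7 CPM, next 17.5 CPM), both libraries of low neuronal score. C1ql1 stood apart in hippocampus of naive replicate 20 at 2 months (16.5 CPM, next 8.94 CPM), a library of low neuronal score that held 1816018 counts, of which 30 were C1ql1. Sox10 was highest in hippocampus of the 24-day PBS replicate 28 (52.5 CPM, next 41.7 CPM), and Cspg4 in hippocampus of plasma replicate 76 of the second experiment (20.1 CPM, next 18.5 CPM).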

How the results depend on the processing

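The number of members called was the same under every alternative run, except that limma-voom called Lhfpl3 for hippocampus minus cortex (0.17 on the log2 scale) in addition to the others. With the mouse as a block, 9 members passed for cerebellum minus cortex, with Pdgfra at -1.03, and the block changed no call. Of the members' fitted values, 1855 of 1962 under other settings and 1566 of 1755 with a library left out kept their direction and their side of the threshold. The sign changed in 106 and 189 values, by no more than 1 SE of the fitted value in 88 and 167 of them. All sign changes belonged to differences that were not called in either setting, and the cause was not tested. Those beyond 1 SE are given next.

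Without the libraries of low neuronal score, cortical values became 0.0881 for Lhfpl3 with age, and -0.11 for C1ql1 and -0.26 for Gpr17 at 22 against 18 months. Cortical plasma differences at 22 months became 0.0223 for Pdgfra, 0.38 for C1ql1, 0.21 for Matn4 and 0.0640 for Ptprz1. Hippocampal values became 0.28 for Matn4 with age, -0.16 for Pdgfra with injection, 0.000724 for Pdgfra with plasma at 18 months, 0.0671 for Lhfpl3 and 0.10 for C1ql1 after 24 days, and 0.0342 for Lhfpl3 over both experiments. Without mice of the third title number, the plasma difference of Pdgfra at 18 months was -0.15 in cerebellum and -0.13 in cortex. Without libraries under 2500000 counts, Olig2 with injection in cortex was 0.13. Under limma-voom the cortical plasma differences at 22 months were 0.26 for C1ql1 and 0.16 for Matn4, that of hippocampal Lhfpl3 after 24 days was 0.000414, and cortical Gpr17 at 22 against 18 months was -0.11.

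With single libraries left out, the ranges of differences that changed sign by more than 1 SE were as follows. With age, Pdgfra in cerebellum ran from -0.21 to 0.13 and Lhfpl3 in cortex from -0.61 to 0.0796. At 22 against 18 months in cortex, C1ql1 ran from -0.11 to 0.54 and Gpr17 from -0.26 to 0.39. With injection in cortex, Pdgfra ran from -0.14 to 0.27, Olig2 from -0.26 to 0.12, Lhfpl3 from -0.22 to 0.35, C1ql1 from -0.18 to 0.30 and Matn4 from -0.19 to 0.22. With plasma at 18 months, Lhfpl3 in cerebellum ran from -0.0277 to 0.18. With plasma at 22 months in cortex, Pdgfra ran from -0.34 to 0.0199, C1ql1 from -0.27 to 0.38, Matn4 from -0.27 to 0.20 and Ptprz1 from -0.28 to 0.0604. After 24 days, Olig1 in cerebellum ran from -0.13 to 0.11. In cortex after 24 days, Olig1 ran from -0.26 to 0.0615, Sox10 from -0.31 to 0.13 and C1ql1 from -0.42 to 0.0512. In hippocampus after 24 days, Olig1 ran from -0.16 to 0.23, Lhfpl3 from -0.48 to 0.15 and C1ql1 from -0.42 to 0.10. The hippocampus minus cortex difference in age change ran from -0.0267 to 0.21 for Ptprz1 and from -0.0150 to 0.50 for Sox10.

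Depth limits the genes with few counts most, since Matn4 and C1ql1 rest on a few CPM in cerebellum. With 3 to 5 mice a group, a value without a call leaves the changes inside its 95% interval possible. The interval is not the limit of what the test could call. For C1ql1 in cerebellum after 24 days it was 0.57 to 1.79, which leaves out 0, and the value did not pass.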
